A study of Rattus norvegicus with 6 samples.

Results

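The genes of glycolysis and glycogen metabolism were followed in the skeletal muscle of newborn rats of lower and average birth weight. Of 47 genes listed for these pathways by name, 42 had a row on the array whose RefSeq accession matched the symbol, among 26299 features in all (9627 of them named genes). Pygm, Pygb, Gys1, Gbe1 and Pdk3 had no matched row and were not analysed here, so that the muscle glycogen phosphorylase, the muscle glycogen synthase and the branching enzyme are not covered. The samples were soleus and gastrocnemius muscle of 6 untreated male Wistar pups aged 1 day, with 1 NimbleGen single-colour array per pup. The 3 LBW pups lay between percentiles 5 and 25 of birth weight. For the 3 ABW pups the treatment protocol has percentiles 50 to 75 and the sample labels 25 to 75. No diet, drug or other treatment is stated for the pups or their mothers, and birth weight is the only difference between the groups that the labels state. The litter of each pup is not given. Values are log2 brightness as normalized by the authors, and a difference is the LBW mean minus the ABW mean.

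Glycolysis splits glucose into pyruvate in the cytosol and yields ATP without oxygen. Muscle expresses its own isoforms of several of these enzymes next to forms found in most tissues, and it stores glucose as glycogen, which phosphorylase, under the control of phosphorylase kinase, releases for contraction. Pyruvate either becomes lactate or enters the mitochondrion through pyruvate dehydrogenase, which the Pdk kinases switch off. The comparison asked how the transcripts of this tissue differed with birth weight.

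The promoters of these genes were searched for the core of the hypoxia response element, ACGTG, on both strands, since many glycolytic genes are known targets of the hypoxia-inducible factors. Of 39 of the 42 genes with a promoter in the RefSeq table of the assembly GRCr8, 18 (46.2%) held it in the 250 bases before the start, compared to 19.1% of the 7841 genes of the array with a promoter and 18.1% of all 27457 genes in the table. The E-box CACGTG, which contains ACGTG on both strands, was in 7 of the 39 (17.9%) and in 6.86% of the array genes. The GC content of the window differed as well, with a median of 61.8% in these genes and 56% in the array genes. A match describes letters and is not evidence of binding. The windows of the 2 genes past the threshold of the study are shown first, and neither held ACGTG: Pfkp (chr17:68639563-68639812, plus strand) and Pfkfb1 (chrX:22941926-22942175, plus strand). Ldha (chr1:106507842-106508091, plus strand) and Pfkfb3 (chr17:71944683-71944932, plus strand), picked after the search, are shown as windows that did. Capitals mark ACGTG or its reverse complement, and Ldha has 2 separate sites and Pfkfb3 has 1. The starts used by the table for Pfkfb1 and Pfkfb3 lie inside the gene, 6138 and 51613 bases from its outer end, and need not be those of the transcripts measured.
Pfkp: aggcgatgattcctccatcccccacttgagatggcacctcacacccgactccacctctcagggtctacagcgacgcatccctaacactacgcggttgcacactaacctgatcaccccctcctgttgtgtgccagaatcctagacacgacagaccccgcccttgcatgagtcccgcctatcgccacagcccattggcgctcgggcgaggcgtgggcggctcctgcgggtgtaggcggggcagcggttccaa
Pfkfb1: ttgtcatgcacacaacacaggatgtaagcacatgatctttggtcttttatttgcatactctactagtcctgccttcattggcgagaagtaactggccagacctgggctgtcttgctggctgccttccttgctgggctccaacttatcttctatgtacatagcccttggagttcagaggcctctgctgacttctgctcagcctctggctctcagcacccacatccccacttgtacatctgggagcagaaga
Ldha: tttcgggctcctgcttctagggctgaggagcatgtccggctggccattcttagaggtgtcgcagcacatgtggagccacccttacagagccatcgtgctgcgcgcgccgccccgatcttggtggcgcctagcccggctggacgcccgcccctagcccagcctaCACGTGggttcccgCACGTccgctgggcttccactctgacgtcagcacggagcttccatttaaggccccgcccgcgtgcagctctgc
Pfkfb3: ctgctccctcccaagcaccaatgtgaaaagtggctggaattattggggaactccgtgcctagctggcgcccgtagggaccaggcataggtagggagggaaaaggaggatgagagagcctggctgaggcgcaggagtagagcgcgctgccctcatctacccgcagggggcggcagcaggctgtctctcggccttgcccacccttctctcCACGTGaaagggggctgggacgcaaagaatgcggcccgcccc

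Most of the 42 genes measured differed little between LBW and ABW muscle, as did most features of the array. The threshold of the study was an unadjusted p below 0.05 together with a change of at least 1.5 times, and with limma 2 of the 42 genes passed it, which is 4.76% compared to 4.27% of all features. Pfkp, the platelet-type phosphofructokinase, rose (2.38% of all features were called as higher), and Pfkfb1, a bifunctional enzyme that makes and removes an activator of phosphofructokinase, fell (1.89% of all features were called as lower). After Benjamini-Hochberg adjustment over all features 0 of the 42 and 0 of all features passed by limma, and the lowest adjusted p among the 42 was 0.307. At an unadjusted p under 0.05 without a fold change criterion, there were 3 of the 42 by limma, with Pdha1 as the third, which is 7.14% compared to 12.4% of all features. In LBW pups 26 of the 42 genes lay higher and 16 lower, with a median difference of 0.07 (61.9% higher), whereas 44.4% of all features lay higher, with a median of -0.02. The values of the 3 LBW pups did not overlap with those of the 3 ABW pups for 6 of the 42 genes (14.3%), compared to 17.4% of all features. Of these, 5 of the 6 genes and 1912 of the 4578 features were higher in LBW pups. The shares called and without overlap were thus near or below those of the array, while the share that lay higher was above it. The median of the 42 genes depended on single pups. It was 0.003 without ABW 3, 0.009 without LBW 2 and 0.10 without LBW 3.

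The precision can be read from the 95% intervals of the differences. For 30 of the 42 genes (71.4%) the whole interval lay within a fold change of 1.5 in either direction, and the share over all features was 66.6%. The 12 genes with wider intervals were Pfkp, Aldoc, Eno2, Pfkfb1, Pfkfb3, Pygl, Phkg1, Fbp2, Pdk4, Slc16a1, Slc16a3 and Gpd1, and for the 10 of these that were not called a fold change of 1.5 lay inside the interval. The median SD within a group was 0.16 for these genes and for all features alike. Of the 42 genes, 3 (Aldoa, Gapdh and Pgam2) had a mean within 1 log2 unit of the highest value on the arrays (15.49), where signals may be compressed. No flag for saturated spots was among the values used. The lowest value of any of the 42 in any pup was 8.31.

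**Figure D1:**
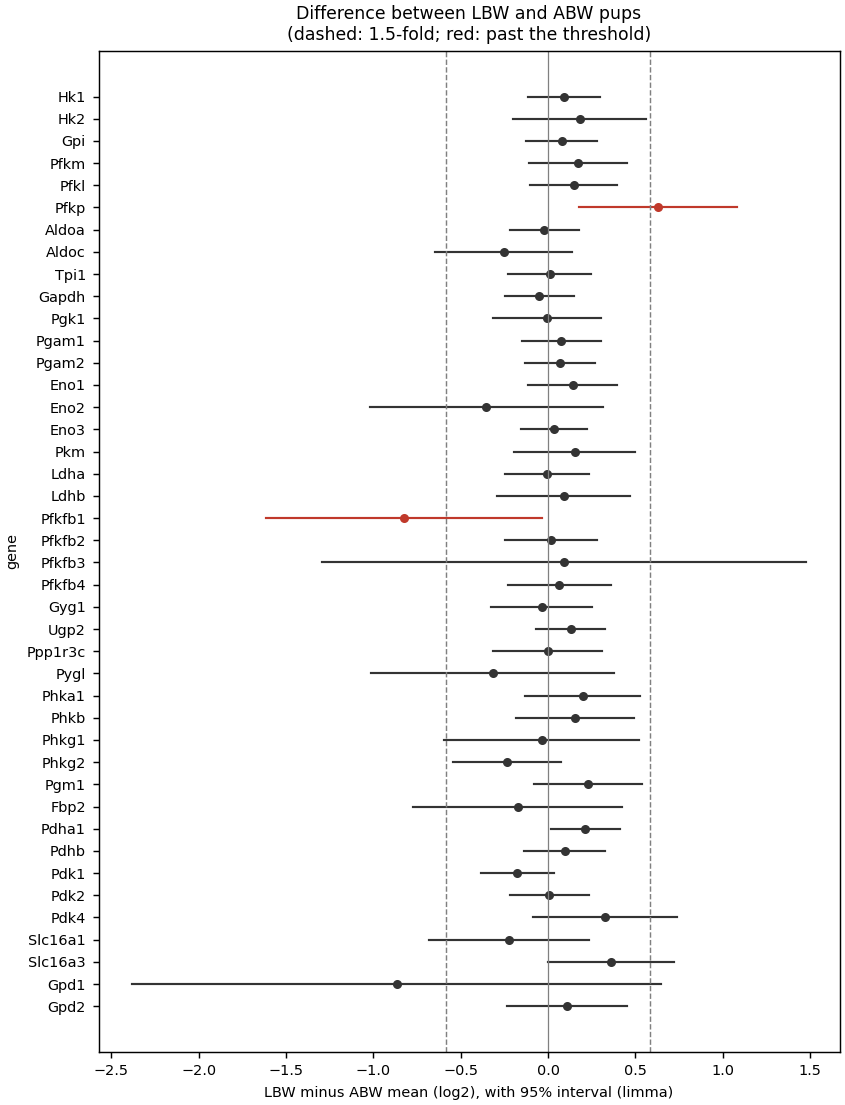
LBW mean minus ABW mean of each of the 42 genes on the log2 scale (points), with the 95% interval by limma (lines) and dashed lines at a fold change of 1.5. Only Pfkp (0.63) and Pfkfb1 (-0.83), in red, passed the threshold of the study, and the intervals of 30 genes stayed between the dashed lines.

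The first steps of glycolysis were close between the groups. Hexokinase traps glucose as glucose phosphate, and Hk1 was at 11.62, 11.72 and 11.64 in LBW 1, 2 and 3 and at 11.54, 11.51 and 11.66 in ABW 1, 2 and 3. Hk2, the form that insulin induces in muscle, was at 10.62, 10.65 and 11.07 in LBW and at 10.53, 10.80 and 10.47 in ABW pups. The groups overlapped for both genes, and LBW 3 was the highest of all pups for Hk2. Gpi, which turns glucose phosphate into fructose phosphate, differed by 0.08 (SE 0.08, adjusted p = 0.753 by limma), with an interval from -0.13 to 0.28.

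Phosphofructokinase catalyses the committed step of glycolysis, and of its 3 subunit genes Pfkp rose and the others were not called. Pfkp (NM_206847) was at 9.86, 10.06 and 10.36 in LBW 1, 2 and 3 and at 9.73, 9.17 and 9.48 in ABW 1, 2 and 3. All LBW pups were above all ABW pups, although LBW 1 and ABW 1 were closer to each other than the SD of either group, 0.26 and 0.28 (n = 3 each). The fold change was 1.55, which is a difference of 0.63 (SE 0.19, adjusted p = 0.307 by limma) with an interval from 0.18 to 1.08. The exact permutation test gave a 2-sided p of 0.1, the smallest that 3 pups against 3 allow. Pfkp did not pass the fold change criterion without LBW 3, where the difference was 0.50, or without ABW 2, where it was 0.48. Pfkm, the muscle form, was at 13.49, 13.71 and 13.44 in LBW and at 13.45, 13.45 and 13.22 in ABW pups. Pfkl, the liver form, was at 12.57, 12.37 and 12.48 in LBW and at 12.26, 12.47 and 12.25 in ABW pups. Pfkm (0.17, interval from -0.11 to 0.45) and Pfkl (0.15, interval from -0.10 to 0.39) overlapped between the groups and were not called.

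Like Pfkp, some markers of other tissues had means that lay higher in all LBW pups than in all ABW pups. Their order among the LBW pups was not that of Pfkp. The 10 bone markers, all with a row, had a mean level between 7.97 and 11.38 in LBW and between 7.35 and 7.62 in ABW pups. The 3 neutrophil markers with a row (of 8), S100a8, S100a9 and Mmp8, had one between 9.62 and 11.13 in LBW and between 8.05 and 8.44 in ABW pups. Of these markers, 6 of the 10 for bone and all 3 for neutrophils were called as higher, compared to 2.38% of all features. Pfkp was at 10.06 in LBW 2, the pup with the lowest bone marker mean of the LBW group (0.51 above the ABW mean, against 3.02 in LBW 1 and 3.91 in LBW 3). Without LBW 2 the difference of Pfkp was 0.65 and stayed called. This leaves the LBW pups with the higher bone marker means, so it cannot show the part of these cells. The part of these cells in the level of Pfkp was not tested. In muscle tissue as a whole, more cells of a type and more RNA per cell cannot be told apart.

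The middle and lower steps, from aldolase to pyruvate kinase, held no called gene. Aldoa splits the fructose bisphosphate and was at 14.84, 14.79 and 14.79 in LBW and at 14.84, 14.90 and 14.75 in ABW pups. Aldoc, the aldolase of brain, was at 9.13, 9.65 and 9.21 in LBW and at 9.59, 9.73 and 9.42 in ABW pups, with LBW 1 and LBW 3 below and LBW 2 within the ABW values. Tpi1, which interconverts the triose phosphates, differed by 0.01 (SE 0.10). Gapdh, widely used as a reference gene and protein, was at 14.94, 14.93 and 15.00 in LBW and at 15.08, 14.95 and 15.00 in ABW pups, a difference of -0.05 with an interval from -0.25 to 0.15. These signals hardly moved, with 0.04 as the SD of Gapdh in LBW and 0.07 in ABW pups (n = 3 each). Gapdh and Aldoa lie near the highest value on the arrays (15.49), where signals may be compressed. A small spread there need not mean steady RNA. Pgk1, which makes the first ATP of the pathway, differed by -0.01, and its interval ran from -0.32 to 0.31. The probes of such genes may also bind transcripts of their processed copies in the genome, which was not tested.

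For phosphoglycerate mutase, Pgam2, the muscle form, was at 14.53, 14.64 and 14.49 in LBW and at 14.50, 14.50 and 14.45 in ABW pups. Pgam1, the form of most tissues, was at 11.74, 11.61 and 11.81 in LBW and at 11.65, 11.72 and 11.56 in ABW pups. Both had a difference of about 0.07 with intervals inside a fold change of 1.5. Among the enolases, Eno3 of muscle was at 14.39, 14.42 and 14.40 in LBW and at 14.41, 14.40 and 14.31 in ABW pups, and Eno1 of most tissues was at 13.41, 13.36 and 13.20 in LBW and at 13.25, 13.26 and 13.04 in ABW pups. Eno3 had the smallest standard error of the enolases (0.08) and a difference of 0.03. Eno2, the neuronal enolase, was at 8.72, 9.03 and 9.83 in LBW and at 9.55, 9.41 and 9.69 in ABW pups. The LBW pups of Eno2 lay on both sides of the ABW values, and the difference was -0.35 (SE 0.28, adjusted p = 0.649 by limma). Without LBW 3 it was -0.67 and past the threshold of the study, and without LBW 1 it was -0.12. Pkm, pyruvate kinase, differed by 0.15 with an interval from -0.19 to 0.50.

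Lactate dehydrogenase joins pyruvate and lactate, and its muscle subunit Ldha was at 14.45, 14.47 and 14.32 in LBW and at 14.48, 14.50 and 14.28 in ABW pups. The difference of Ldha was below 0.01 in size (SE 0.10), with an interval from -0.25 to 0.24. Ldhb, the heart subunit, was at 12.64, 12.84 and 12.24 in LBW and at 12.55, 12.41 and 12.50 in ABW pups, so that the LBW pups enclosed the ABW values. The lactate carriers differed in direction. Slc16a3, the carrier that exports lactate from fast fibres, was at 9.83, 9.91 and 9.96 in LBW and at 9.70, 9.70 and 9.22 in ABW pups. Its groups did not overlap and the difference was 0.36 (SE 0.15, adjusted p = 0.405 by limma), short of the threshold of the study, with ABW 3 as the lowest pup and 0.20 as the difference without it. Slc16a1, which also takes lactate up, was at 10.33, 9.96 and 9.62 in LBW and at 10.14, 10.37 and 10.08 in ABW pups, and overlapped.

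The muscle forms were next set against their counterparts within each pup, which removes a shift of the array shared by both genes. Unequal compression of bright signals and a differing mix of cells are not removed, and their part was not tested. For 9 pairs of isoforms with both rows, the log2 value of the muscle form minus that of the other form was compared between the groups. The mean of this value was above 0 in 5 pairs and below 0 in 4, taken as LBW minus ABW. With 3 pups against 3 the exact permutation test cannot go below 0.1, so that no pair could pass it, and the lowest p adjusted over the 9 pairs was 0.771 by the exact permutation test. Pfkm over Pfkp had the lowest value, -0.46 (exact permutation test, 2-sided p = 0.1), and it was -0.27 without LBW 3 and also without ABW 2. Relative to the ABW mean, this difference was -0.28, -0.26 and -0.84 in LBW 1, 2 and 3 and -0.19, 0.37 and -0.18 in ABW 1, 2 and 3. The LBW pups were all below the ABW pups, but LBW 2 and ABW 1 were only narrowly apart. Eno3 against Eno2 gave 0.39, and it was 0.85, 0.56 and -0.25 in LBW 1, 2 and 3, so that LBW 3 ran against the others. Aldoa against Aldoc gave 0.23, Phkg1 against Phkg2 0.20, Hk2 against Hk1 0.09 and Pfkm against Pfkl 0.02. Pgam2 against Pgam1 (-0.01), Ldha against Ldhb (-0.09) and Eno3 against Eno1 (-0.11) lay on the other side of 0.

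**Figure D2:**
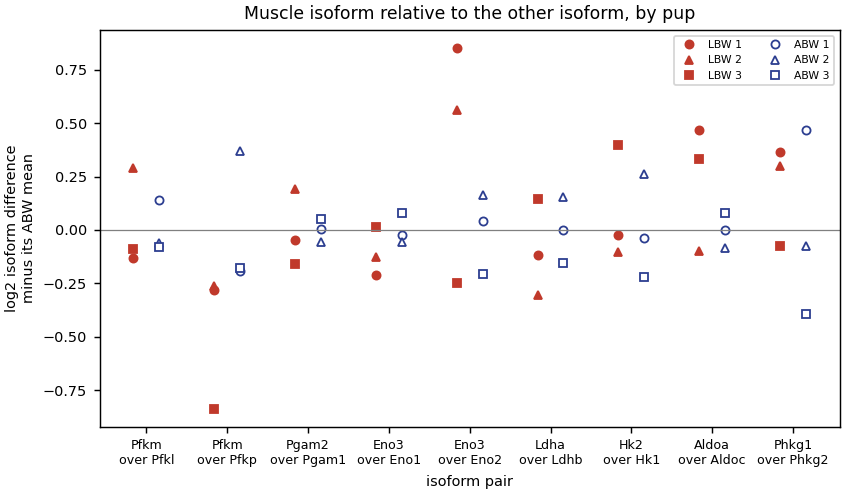
Log2 value of the muscle isoform minus that of the other isoform in each pup, relative to the mean of the ABW pups, for 9 pairs. Filled symbols are LBW and open symbols ABW pups, and only for Pfkm over Pfkp do the groups not overlap (LBW between -0.84 and -0.26, ABW between -0.19 and 0.37).

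The Pfkfb genes encode the bifunctional enzymes that make and remove fructose 2,6-bisphosphate, an activator of phosphofructokinase. Pfkfb1 (NM_012621), the liver and muscle gene, was at 8.54, 8.31 and 8.59 in LBW 1, 2 and 3 and at 8.52, 9.81 and 9.59 in ABW 1, 2 and 3. The LBW pups were alike, with 8.48 ± 0.15 (SD, n = 3), whereas ABW 1 lay within them and apart from the other ABW pups. The fold change was 0.564, which is a difference of -0.83 (SE 0.33, adjusted p = 0.386 by limma) with an interval from -1.62 to -0.04. By the exact permutation test the 2-sided p was 0.3, and the values of the groups overlapped. Pfkfb1 stayed called without ABW 1, where the difference was -1.22, and was not called without any other single pup, where it lay between -0.88 and -0.58. It was not called by the methods' test either. Pfkfb3, the inducible form, was at 11.20, 11.77 and 9.85 in LBW and at 10.28, 11.75 and 10.53 in ABW pups, and with this spread its interval ran from -1.30 to 1.48. Pfkfb2, the heart form and the only gene of the 42 with several rows (3), differed by 0.02, and its rows by -0.04, 0.12 and -0.03. Pfkfb4, the form first found in testis, differed by 0.07.

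Glycogen genes were compared by storage and breakdown, each without some of its main enzymes. Of the 5 storage genes, 3 had a row, with 0 called, 1 higher and 2 lower in LBW pups and a median difference of 0.00. Ugp2, which makes the UDP-glucose for glycogen, was at 12.57, 12.65 and 12.65 in LBW and at 12.44, 12.48 and 12.55 in ABW pups. Its groups did not overlap, yet the difference was 0.13 (SE 0.08) and its interval ran from -0.07 to 0.33. Gyg1, the protein that primes the glycogen chain, differed by -0.04, and Ppp1r3c, which brings a phosphatase to glycogen and so turns synthase on, by 0.00. Pgm1 exchanges the phosphate of glucose in both directions and was at 12.50, 12.81 and 12.36 in LBW and at 12.35, 12.34 and 12.29 in ABW pups. The LBW pups of Pgm1 were above all ABW pups, with LBW 3 and ABW 1 almost equal, and the difference was 0.23 (SE 0.13, adjusted p = 0.521 by limma), or 0.10 without LBW 2.

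Of the 7 breakdown genes, 5 had a row, with 0 called, 2 higher and 3 lower and a median difference of -0.04. Pygl, the liver phosphorylase, was at 10.65, 10.66 and 10.77 in LBW and at 10.31, 11.36 and 11.37 in ABW pups. ABW 2 and ABW 3 stood above all other pups and ABW 1 below them, so that the difference was -0.32 (SE 0.29, adjusted p = 0.700 by limma). Without ABW 1 it was -0.67 and past the threshold of the study, whereas it was -0.15 without ABW 2 and -0.14 without ABW 3. Among the subunits of phosphorylase kinase, Phkg1, the catalytic subunit of muscle, was at 9.14, 9.50 and 8.87 in LBW and at 9.63, 9.09 and 8.92 in ABW pups. Phkg2, the catalytic subunit of liver and testis, was at 11.15, 11.57 and 11.31 in LBW and at 11.52, 11.53 and 11.68 in ABW pups. Neither gene separated the groups. The regulatory subunits Phka1 (0.20) and Phkb (0.16) had intervals within a fold change of 1.5. The median of the 5 breakdown genes changed sign with single pups, as it was -0.20 without LBW 2 and 0.17 without ABW 1. Fbp2, the muscle fructose bisphosphatase of the way from lactate back to glycogen, was at 11.57, 11.93 and 10.91 in LBW and at 11.61, 11.73 and 11.59 in ABW pups, with LBW 3 apart.

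**Figure D3:**
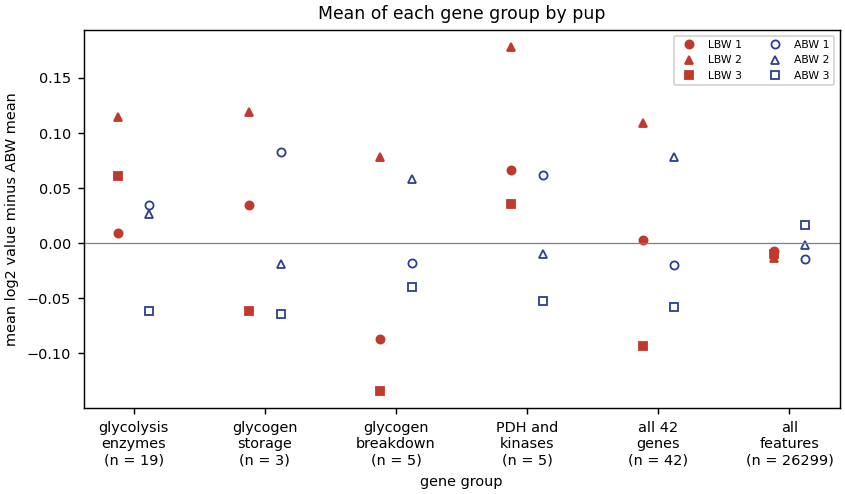
Mean log2 value of each gene group in each pup, relative to the mean of the ABW pups, with the number of genes in brackets. LBW (filled) and ABW (open) pups overlap in each of the gene groups plotted, and LBW 2 is the highest pup over the 42 genes (0.11) and LBW 3 the lowest (-0.09).

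Around pyruvate dehydrogenase, the gate of pyruvate into the mitochondrion, Pdha1 (NM_001004072), its catalytic subunit, was at 13.50, 13.63 and 13.50 in LBW and at 13.34, 13.31 and 13.34 in ABW pups. The groups did not overlap, and the gap between LBW and ABW pups was wider than the SD of either group, 0.08 and 0.01 (n = 3 each). The difference of Pdha1 was 0.21 (SE 0.08, adjusted p = 0.377 by limma), with an interval from 0.01 to 0.41, all of it below a fold change of 1.5. Pdhb, its partner subunit, differed by 0.09 with an interval from -0.14 to 0.33. Of the kinases that switch the complex off, Pdk1, a hypoxia target, was at 11.46, 11.54 and 11.51 in LBW and at 11.58, 11.73 and 11.73 in ABW pups. All LBW pups were below all ABW pups for Pdk1, with a difference of -0.18 (SE 0.09, adjusted p = 0.469 by limma). Pdk4, the kinase induced by fasting and fatty acids, was at 13.51, 13.62 and 13.35 in LBW and at 13.52, 13.02 and 12.94 in ABW pups. ABW 1 lay within the LBW values, and the difference was 0.33 (SE 0.17, adjusted p = 0.493 by limma). Pdk2, the widely expressed kinase, differed by 0.01.

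The glycerol phosphate dehydrogenases link glycolysis to lipid synthesis and to the respiratory chain. Gpd1, the cytosolic form, was at 11.21, 11.40 and 9.28 in LBW 1, 2 and 3 and at 10.69, 12.08 and 11.74 in ABW 1, 2 and 3, the widest range of the 42 genes (2.80). LBW 3 was far below all other pups, and the difference of -0.87 (SE 0.63, adjusted p = 0.623 by limma) shrank to -0.19 without it. Gpd2, the mitochondrial form, differed by 0.11 (SE 0.14).

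The genes with the widest spread between pups were mostly not those that separated the groups, Pfkp excepted. The range over the 6 pups was above 1 for 7 of the 42 genes (Gpd1, Pfkfb3, Pfkfb1, Pfkp, Eno2, Pygl and Fbp2) and below 0.5 for 22. Markers of adipocytes, the cells that store fat, also varied between pups, with an order like that of only some of these genes. The mean of the 7 adipocyte markers with a row (of 8) was 11.17, 11.16 and 10.13 in LBW 1, 2 and 3 and 11.11, 12.16 and 11.98 in ABW 1, 2 and 3. All 7 were lower in LBW pups, with 2 called, compared to 1.89% of all features called as lower. As with Gpd1, LBW 3 had the lowest and ABW 2 the highest marker mean of the 6 pups. As with Gpd1, Pfkfb1 and Pygl, ABW 2 and ABW 3 lay above the other pups. Unlike the markers, Pfkp and Eno2 were highest in LBW 3, and Pfkfb3 and Fbp2 were highest in LBW 2. The part of adipocytes in these values was not tested.

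**Figure D4:**
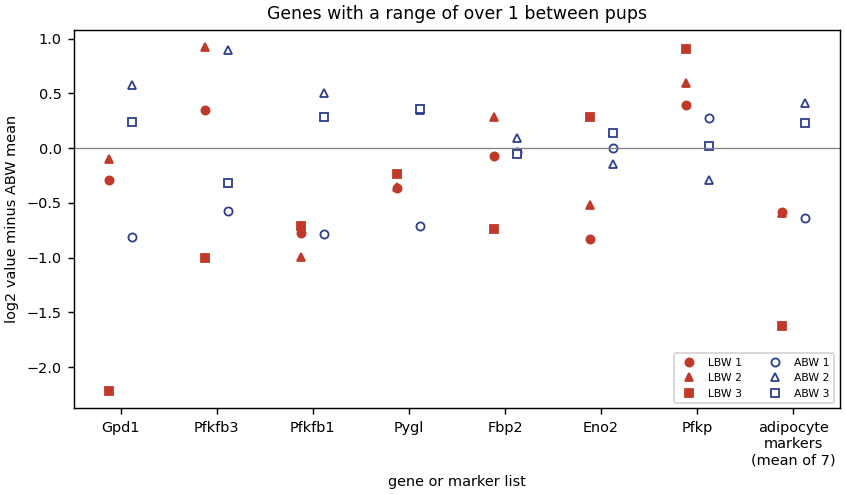
The 7 genes with a range of over 1 between pups and the mean of 7 adipocyte markers, each as the log2 value minus the mean of the ABW pups. LBW 3 is the lowest pup for Gpd1, Pfkfb3, Fbp2 and the adipocyte markers. ABW 2 and ABW 3 are the highest for Gpd1, Pfkfb1, Pygl and the markers. For Pfkp and Eno2, LBW 3 is the highest pup.

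Of 81 further genes listed from the neighbouring pathways, 53 had a row, 1 of which was called as higher and 1 as lower, with a median difference of -0.03. The share called was 3.77%, near the 4.27% of all features. Slc16a7, a pyruvate and lactate carrier, was at 8.60, 8.84 and 8.97 in LBW and at 9.33, 10.11 and 9.99 in ABW pups. It fell by 1.00 (SE 0.22, adjusted p = 0.254 by limma) without overlap. Egln3, an oxygen sensor that is itself a hypoxia target, was at 9.06, 9.23 and 8.91 in LBW and at 8.57, 8.62 and 8.22 in ABW pups. It rose by 0.60 (SE 0.14, adjusted p = 0.269 by limma) without overlap and was the only called gene of the 14 hypoxia response genes with a row, which had a median difference of 0.07. Of the other listed branches, glycogen had 0 called of 9, gluconeogenesis 0 of 5, the pentose phosphate pathway 0 of 4 and the remaining glycolysis genes 0 of 10. Of the 5 genes below 0.05 in unadjusted p by limma, the other three differed by less than 1.5 times, namely Tigar, which lowers fructose 2,6-bisphosphate (-0.43), the sperm gene Gapdhs (-0.39) and Pdp2, a phosphatase that switches pyruvate dehydrogenase on (-0.27).

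The tissue label was borne out by the 10 skeletal muscle markers with a row (of 15), whose mean lay between 14.27 and 14.33 in LBW and between 14.24 and 14.33 in ABW pups, with 0 called. Fibre type markers were limited to 3 fast and 6 slow genes with a row, with 0 called in either. Of the other tissues, 2 of 5 osteoclast and 1 of 5 cartilage markers with a row were called as higher in LBW pups, compared to 0 of 5 erythroid and 0 of 8 Schwann cell markers. Over all features 2.38% were called as higher and 1.89% as lower. The medians of the 6 arrays were between 8.70 and 8.76, and leaving out LBW 2, the LBW pup whose bone markers were nearest those of the ABW pups, raised the features called after adjustment by limma from 0 to 125, of which 0 were among the 42 genes (lowest adjusted p = 0.269 by limma, Aldoc).

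**Figure D5:**
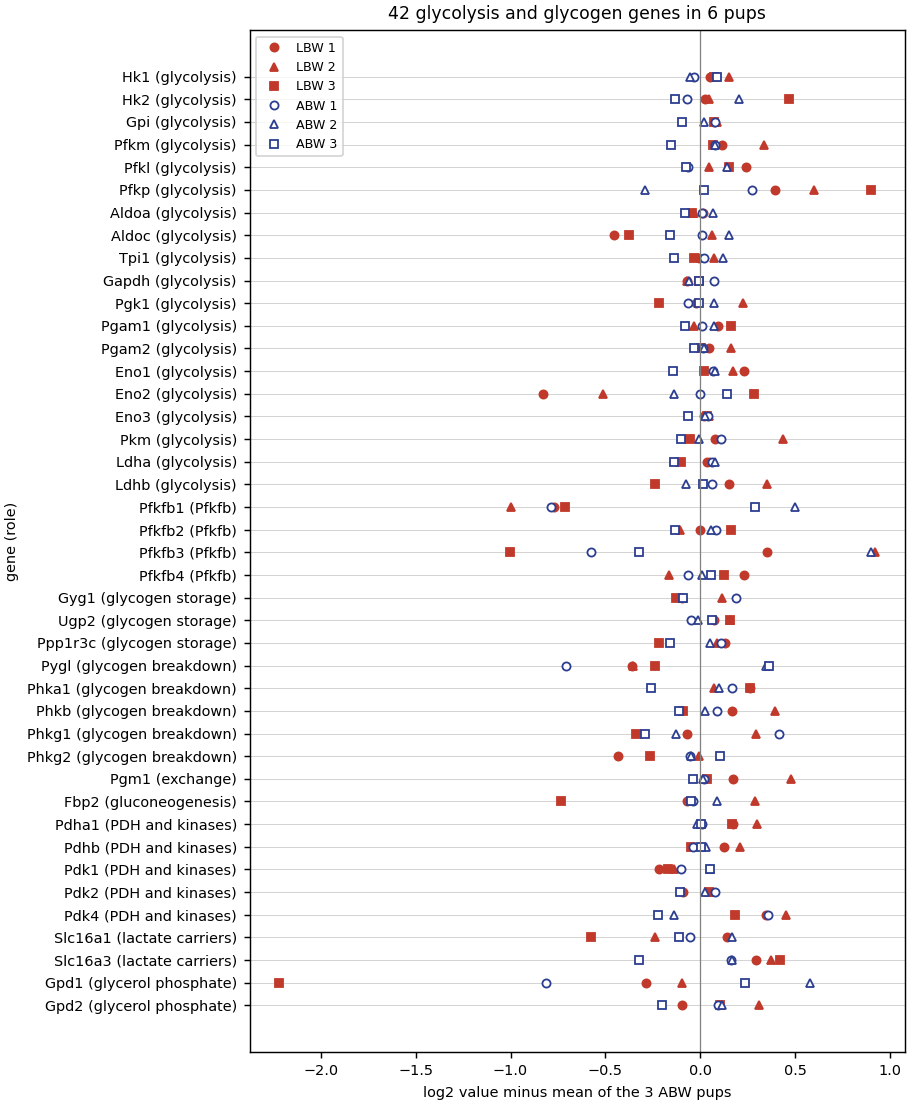
Log2 value of each of the 42 genes in each pup minus the mean of the 3 ABW pups, ordered by role. Most genes lie within 0.5 of 0 in all pups, and Gpd1 in LBW 3 (9.28 against an ABW mean of 11.50) lies farthest out.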

How the data were processed

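Muscle RNA of each pup (3 LBW, 3 ABW) was hybridised to a NimbleGen rat array with 5 probes per transcript. The deposited values are log2 brightness for 26419 rows, which the authors normalized in R (the submitters' processing notes name RMA). Beyond that name, settings such as those of background correction are not given in the sources used here, and neither are detection calls. The depth of arrays cannot be counted, so that their number limits the precision. Whether the pups came from separate litters is not stated.

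Rows were named through RefSeq accessions (GRCr8 gene table, 9747 rows, 36.9%), and rows of a symbol were averaged, which gave 26299 features. The tests used R 4.3.3 with limma 3.58.1, 2-sided (lmFit and eBayes on the 2 groups), with Benjamini-Hochberg adjustment over all features, after a check on simulated data. The methods' test, a Student t-test with pooled variance and without moderation of the variances, was an alternative. The paper names the Student test or ANOVA for its data in general and no test for the arrays. Values were given per pup for called genes, isoform pairs and genes without overlap. Further genes given by pup (Gapdh, Pdk4, Slc16a1, Gpd1, Pfkfb3, Fbp2 and Pygl) were added after their values were seen. The genes and lists were chosen with earlier results of these data known.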

Additional observations from a re-analysis of the deposited data

How the results depend on the processing

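Of the 42 genes under 16 alternatives each (672 values), 660 kept their side of the threshold of the study. Most of these values were of genes not called in the main comparison, so their number says little about the called genes. All 10 lost calls were of Pfkp and Pfkfb1, the only 2 genes called there, and 2 calls were gained. No called value changed sign. Settings that alter only the block, the variance, the test, the threshold or the features kept leave both differences as they were (0.63 for Pfkp, -0.83 for Pfkfb1). With those settings a change of sign was not possible. Of the genes not called, 13 changed sign under at least 1 alternative. Pfkp and Pfkfb1 were both called with the replicate number as a block (replicate block, 2 genes and 1230 features), quantile normalization, centring, without the dimmest 25% of features, array weights, a robust or trended variance, and without averaging of rows. Pups of the same number deviated from their group means with correlations of 0.087, 0.104 and 0.055, against -0.096 to 0.021 between other numbers. Each pup thus correlated best with its own number. The deviations within a group cancel out, so these correlations depend on each other. Neither the labels nor the size of the correlations establish a pairing, which was not tested. The methods' test called 1 of the 42 genes (Pfkp) and 584 features, and a fold change of at least 2 left 0 genes and 335 features, compared to 2 genes and 1124 features. With each pup left out in turn, between 0 (without ABW 2) and 3 (without ABW 1) of the 42 genes were called. Features past the adjusted threshold were between 0 and 125 (without LBW 2). The median difference lay between -0.082 and 0.106 for the storage genes and between -0.203 and 0.171 for the breakdown genes, and the causes were not tested. Array weights turned both medians, to 0.04 each. The pair differences, for which leaving out a pup and quantile normalization were chosen after seeing the data, changed sign in 4 of 9 pairs, Pfkm over Pfkp not among them (-0.56 to -0.27). How far a signal lies above background is unknown.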
